A study of Mus musculus with 6 samples.

Results

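Axon guidance genes encode the secreted and membrane-bound cues that steer growing axons and the receptors that read them. The genes described here are those whose symbol in the platform annotation starts with Sema, Plxn, Epha, Ephb, Efna, Efnb or Unc5, together with Slit1, Slit2, Robo1, Robo2, Robo3, Nrp1, Nrp2, Ntn1, Ntn4 and Dcc. They comprised 63 genes with 161 probes, of 19057 named genes and 45281 probes on the array. Of the 63 genes, 39 were measured, which means that at least 1 probe was detected above background (detection p under 0.05) on 3 or more of the 6 arrays. No probe carried the names Robo3, Ntn1, Ephb2 or Sema5b in the annotation, and these genes were not analysed here. The name prefix also brought in Unc50, which encodes a Golgi protein and no netrin receptor, and Unc5cl, and neither was measured.

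The arrays held RNA from the ventromedial hypothalamus of mice aged 16 weeks on a mixed genetic background. All mice were homozygous for a floxed Sirt1 allele (Sirt1loxP/loxP), so the controls carried that allele too. The 3 SIRT1 deletion pools came from mice that in addition carried Sf1-Cre, in which the SF1 promoter drives Cre, so that deletion is limited to SF1-expressing cells within the dissected tissue. The 3 control pools lacked Cre. How many mice made up a pool, and their sex, is not stated, so p-values reflect variation among pools and not among animals. SIRT1 is a NAD-dependent deacetylase, and SF1, the product of Nr5a1, is a nuclear receptor that marks ventromedial neurons.

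Semaphorins signal through plexins, and most of the secreted class 3 semaphorins need a neuropilin as co-receptor. Ephrins and Eph receptor kinases signal in both directions between touching cells. Netrins attract through DCC and repel through UNC5 receptors, and Slit proteins repel through ROBO receptors. In the adult brain many of these genes stay on in neurons, and several also act in blood vessels and in glia.

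Between 20053 and 20611 probes were detected per array, and the median raw signal was 145.5 to 149.4 in control and 140.4 to 142.1 in deletion pools. Of 20 markers of the ventromedial nucleus and SF1 neurons 18 were measured, Nr5a1, Fezf1 and Sox14 among them. Nr5a1 was dim, with a mean of 5.05 in control, where the lowest detected value per array was 4.86 to 4.89. All 8 arcuate markers on the array were measured too, so detection alone does not check how the tissue was dissected. The single Sirt1 probe differed by -0.034 on the log2 scale (95% interval -0.27 to 0.20). Where it lies in the transcript is unknown here, so it checks neither the deletion nor the labels. Markers of other cells moved to different degrees. Exocrine pancreas genes were lower in 15 of 15, with a summed signal of 4207 to 4911 in control and 2680 to 2943 in deletion pools. All 15 had a limma unadjusted p under 0.05, against 4.21% of all features lower at that threshold. At a limma adjusted p under 0.05 there were 5 of them, among the 15 of 14221 features (0.105%) that passed. That list was chosen with earlier results of these data known. Meningeal and fibroblast genes were lower in 10 of 11, with overlapping sums of 1679 to 4714 and 1592 to 2931. Oligodendrocyte genes were higher in 9 of 10, with sums of 20944 to 21958 and 20508 to 23656. Endothelial and pericyte genes split evenly, 6 higher and 6 lower. Lum, Col1a2 and Col3a1 of the meningeal list and Prss2 and Pnlip of the pancreas list were not measured. The part of these other cells in the values below was not tested.

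The measured genes covered every class of the family to some extent. Of 19 semaphorins 13 were measured, of 9 plexins 6, of 9 EphA receptors 3, of 4 EphB receptors 3, of 5 ephrin-A genes 2 and of 3 ephrin-B genes 2. Both neuropilins, Robo1, Robo2, Slit2 and Ntn4 were measured, as were Dcc, Unc5a, Unc5b and Unc5c. All 39 were detected in at least 1 pool of each group, and 34 were detected on all 6 arrays.

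**Figure D1:**
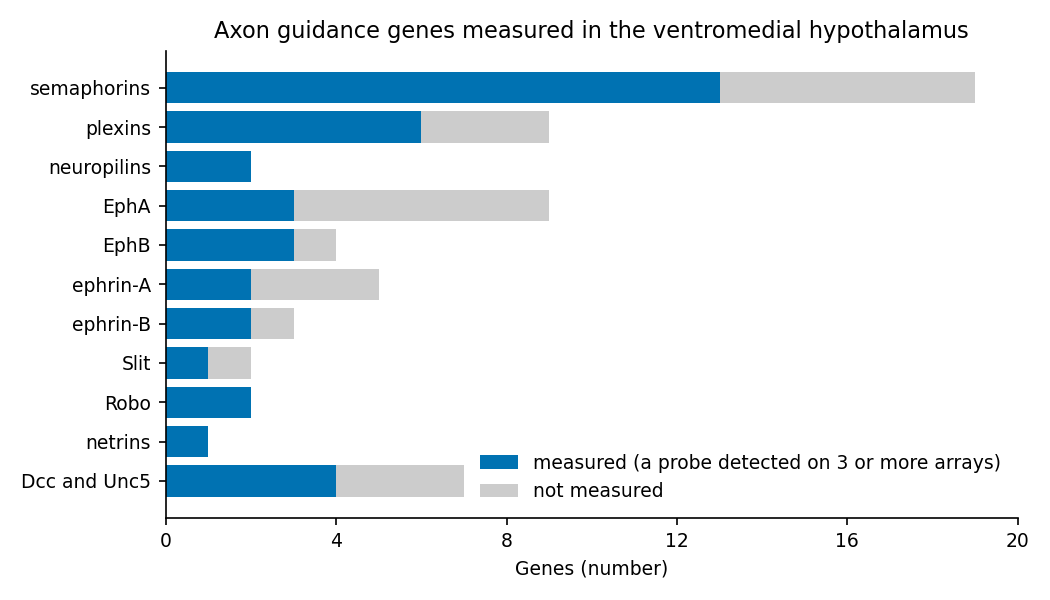
Number of genes in each class (horizontal axis) that were measured, in blue, and not measured, in grey. Semaphorins had 13 of 19 genes measured and EphA receptors 3 of 9.

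The 24 genes that were not measured included cues and receptors with well-known partners. Of these, 15 had no probe detected on any array, among them Sema3c, Sema3d, Sema3e and Sema3g (class 3 semaphorins), Plxna1 and Plxna4 (semaphorin receptors), Slit1, Epha6 and Unc5d. The other 9, among them Efnb2, the ligand of EPHB4, and Epha3, had a probe detected on 1 or 2 arrays. Of the 24 genes 15 were represented by 1 probe, and a probe below background does not show that a gene was off. Plxnd1, the receptor of SEMA3E, was measured although Sema3e was not.

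No axon guidance gene passed the test between SIRT1 deletion and control. Of the 39 measured genes 0 reached a limma adjusted p under 0.05 over all 14221 features, where 15 features or 0.105% did, and the lowest adjusted p was 0.516. At an unadjusted p under 0.05 there were 3 members, or 7.69%, against 8.82% of all features. They were Ntn4, which was higher, and Sema3a and Unc5b, which were lower. The members split into 18 higher and 21 lower, with a median log2 fold change of -0.0056, against -0.0046 for all features. The typical size of a difference, as the median of its absolute value, was 0.10 for the members and 0.097 for all features. In bulk tissue, fewer cells of a type and less RNA per cell cannot be told apart.

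The precision allows bounds only on the whole-tissue signal of the probe that represents each measured gene. A change limited to SF1-expressing cells could be larger within those cells and was not bounded, nor were the genes that were not measured. The 95% limma interval of the log2 fold change had a median half-width of 0.25 over the members. For 36 of the 39 genes that interval excluded a 1.5-fold change in either direction, and for 37 a 2-fold change. The exceptions for 1.5-fold were Unc5b, Sema5a and Dcc, and for 2-fold Unc5b and Sema5a. These are log2 values with an offset, which compresses the differences of dim probes.

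**Figure D2:**
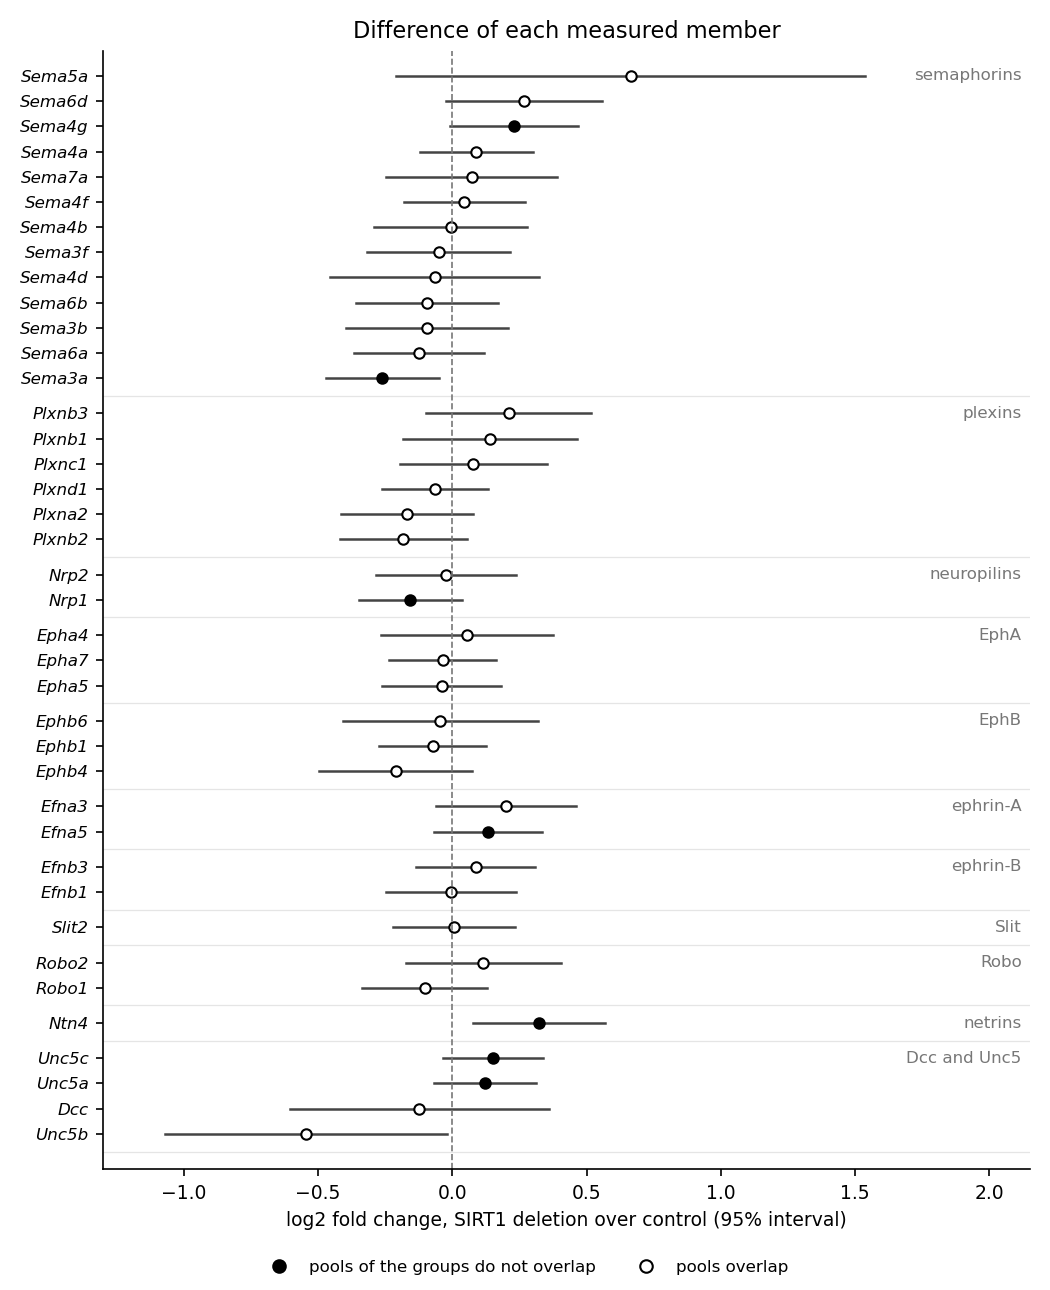
Log2 fold change of SIRT1 deletion over control (horizontal axis) for each of the 39 measured genes, grouped by class, with its 95% limma interval. Filled points mark the 7 genes whose control and deletion pools did not overlap, and the intervals of Sema5a and Unc5b are the widest.

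The pools of both groups did not overlap in 7 members, or 17.9%, against 14.3% of all features. Deletion was higher in 5 of them (12.8%, against 7.04% of all features) and lower in 2 (5.13%, against 7.21%). The higher genes were Ntn4, Sema4g, Unc5c, Efna5 and Unc5a, and the lower genes were Sema3a and Nrp1. These counts hold for quantile-normalised values. When arrays were scaled to a common median instead, Unc5c (-0.0049) and Efna5 (-0.041) turned negative and Unc5a was 0.0015. Ntn4, Sema4g, Sema3a and Nrp1 kept their sign.

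Sema3a and Nrp1 are a ligand and its co-receptor, and they were the 2 members with all deletion pools below all control pools. SEMA3A is a secreted semaphorin that repels axons and binds neuropilin-1, which is also a co-receptor of VEGF in blood vessels. The Sema3a probe had log2 intensities of 6.09, 5.89 and 6.12 in the 3 controls, in the order of their replicate numbers, and 5.80, 5.75 and 5.77 in the 3 deletion pools. The deletion pools lay close together and below the dimmest control. The difference was -0.26 (95% interval -0.47 to -0.051, limma unadjusted p = 0.0206, adjusted p = 0.525). Nrp1 had 8.86, 8.91 and 9.02 in control and 8.77, 8.80 and 8.74 in deletion pools, a difference of -0.16 (-0.35 to 0.035, limma adjusted p = 0.602). Of the other kept probes of Nrp1, 1 gave -0.22, also without overlap, and the other gave -0.057 with overlap. Without any background correction the Sema3a difference was -0.081, and without control 2 it was -0.33.

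The promoters of these genes, from 250 bases before to 50 after the RefSeq start, are shown because these were the 2 members whose deletion pools all lay below the controls, a share of 5.13% that did not exceed the 7.21% of all features. Capitals mark AAGGTCA, a sequence that SF1 and related nuclear receptors bind, searched on both strands. Both sequences are from RefSeq (GRCm38.p6) and run 5′ to 3′ on the plus strand. Sema3a lies at chr5:13396534-13396833 and Nrp1 at chr8:128358823-128359122.
Sema3a: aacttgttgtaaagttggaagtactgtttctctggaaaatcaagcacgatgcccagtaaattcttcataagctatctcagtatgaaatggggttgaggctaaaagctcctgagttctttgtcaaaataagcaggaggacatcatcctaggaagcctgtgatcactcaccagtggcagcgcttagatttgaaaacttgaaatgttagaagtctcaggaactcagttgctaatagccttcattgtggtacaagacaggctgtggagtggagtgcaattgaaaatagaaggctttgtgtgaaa
Nrp1: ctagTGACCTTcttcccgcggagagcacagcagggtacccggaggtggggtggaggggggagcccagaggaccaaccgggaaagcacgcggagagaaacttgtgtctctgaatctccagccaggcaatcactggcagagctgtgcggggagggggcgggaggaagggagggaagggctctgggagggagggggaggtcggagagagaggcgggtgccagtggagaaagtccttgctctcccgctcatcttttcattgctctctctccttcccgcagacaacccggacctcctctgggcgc
The Nrp1 window held 1 match, on the opposite strand, whose first base lay at -246 from the start, and the Sema3a window held none. AAGGTCA was present in 3 of 47 promoters of measured members (6.38%), those of Nrp1, Sema4b and Sema5a, and in 1550 of 32851 promoters in the table (4.72%). The table held 34 of the 39 measured members. A match is a run of letters and not a bound site.

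The receptors of SEMA3A and its relatives beyond Nrp1 showed no change that passed the test. Nrp2, the co-receptor of SEMA3F, was close to background (2 control arrays and 1 deletion array showed it) and differed by -0.023. Its ligand Sema3f differed by -0.051 (95% interval -0.32 to 0.21). Plxna2, a plexin that pairs with neuropilins, had 8.72, 8.87 and 8.88 in control and 8.84, 8.50 and 8.63 in deletion pools. Its difference of -0.17 (-0.41 to 0.078) rested on pools 2 and 3, since SIRT1 deletion 1 lay among the controls. Sema3b, detected on 5 arrays, differed by -0.096.

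Among the B-type plexins, which include receptors of class 4 semaphorins, the differences went both ways. Plxnb2 had 8.24, 8.27 and 8.27 in control and 8.02, 7.94 and 8.27 in deletion pools. The controls lay within a narrow band and SIRT1 deletion 3 lay level with them, so the difference of -0.18 (-0.42 to 0.054) came from the other pools of its group. Plxnb3, which oligodendrocytes express, differed by 0.21 (-0.097 to 0.52), and Plxnb1, the receptor of SEMA4D, by 0.14. Plxnb3 was 0.079 without SIRT1 deletion 3, and Plxnb1 was 0.0036 without control 3. Sema4d itself differed by -0.066. Plxnc1, the receptor of SEMA7A, differed by 0.078 and Sema7a by 0.072. Plxnd1 differed by -0.064, with a range of 0.18 over the 6 pools on the log2 scale. Its second kept probe ran from 5.62 to 6.15 and differed by 0.055, the opposite sign.

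Of the membrane-bound semaphorins, Sema4g and Sema6d were higher in the deletion pools without passing the test. Sema4g, a class 4 transmembrane semaphorin, had 7.70, 7.74 and 7.74 in control and 7.77, 8.12 and 7.99 in deletion pools. The groups did not overlap, but SIRT1 deletion 1 lay just above the brightest control. The difference was 0.23 (-0.010 to 0.47, limma adjusted p = 0.565), and without SIRT1 deletion 2 it was 0.15. Sema6d, a ligand of class A plexins, had 7.73, 7.77 and 7.95 in control and 7.87, 8.32 and 8.07 in deletion pools, with overlap and a difference of 0.27 (-0.024 to 0.56). A second kept Sema6d probe, detected on 4 arrays, gave -0.33, and the mean of both probes gave -0.030, so the direction of Sema6d depended on the probe.

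**Figure D3:**
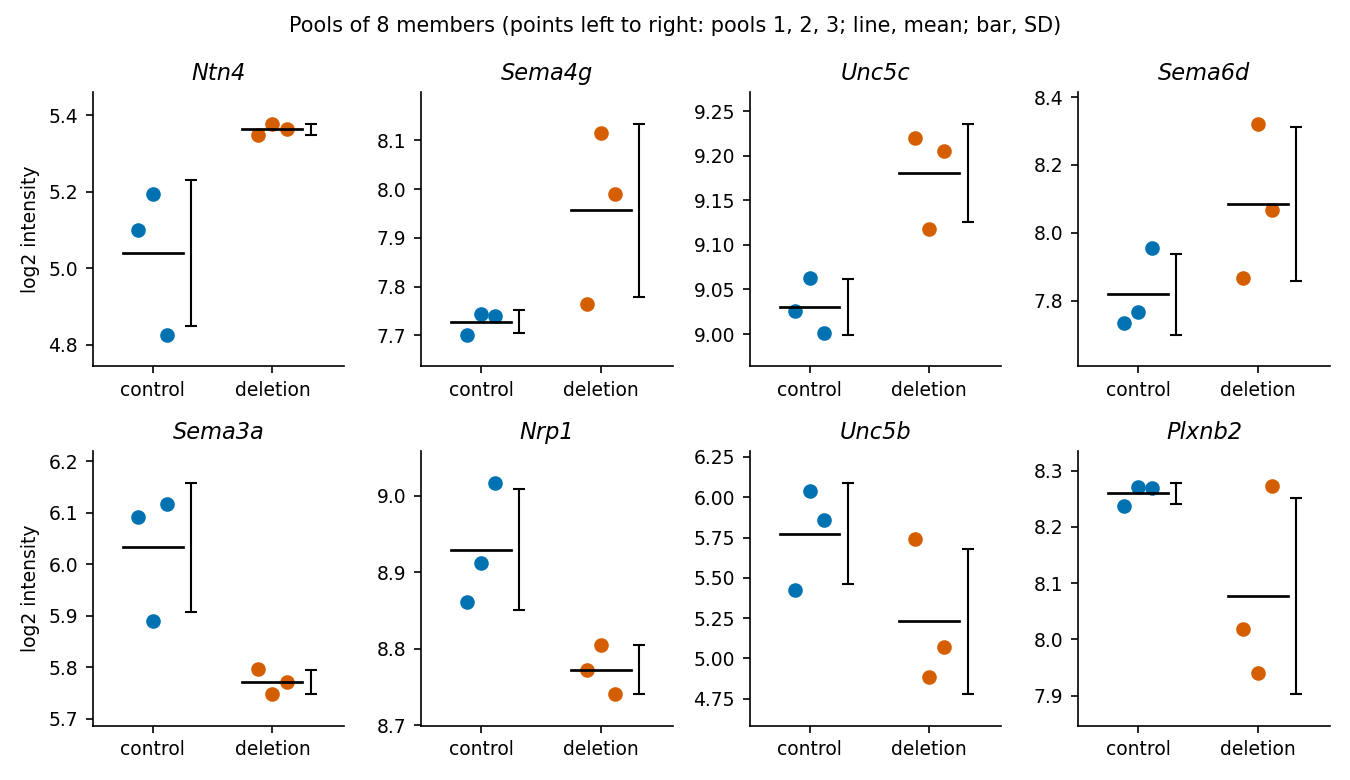
Log2 intensity (vertical axis, scaled to each gene) in the 3 control pools, in blue, and the 3 SIRT1 deletion pools, in orange, for 8 members, with the mean as a line and the SD as a bar. On these quantile-normalised values Ntn4, Sema4g and Unc5c were higher and Sema3a and Nrp1 lower in every deletion pool (the mean of Unc5c was -0.0049 apart with median scaling), while Sema6d, Unc5b and Plxnb2 overlapped.

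Sema5a varied more over the pools than any other member, and not along the groups. It encodes a transmembrane semaphorin with thrombospondin repeats. Its brightest probe had 7.43, 7.32 and 8.41 in control and 7.54, 8.87 and 8.74 in deletion pools. Control 3 and SIRT1 deletion 2 and 3 were high, and the other 3 pools were low, with nothing in between. The range over the 6 pools was 1.55, which 0.527% of all features reached. A second probe was high in the same pools, with 6.59, 6.71 and 7.74 in control and 7.00, 8.14 and 8.19 in deletion pools. The remaining kept probe stayed between 5.33 and 5.67 in all pools and differed by 0.011 between the groups. The group difference of the brightest probe was 0.66 (-0.21 to 1.54, limma adjusted p = 0.627). With 1 pool left out it was smallest, at 0.42, when SIRT1 deletion 2 was missing, and largest, at 1.09, when SIRT1 deletion 1 was missing. It was 1.01 without control 3.

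**Figure D4:**
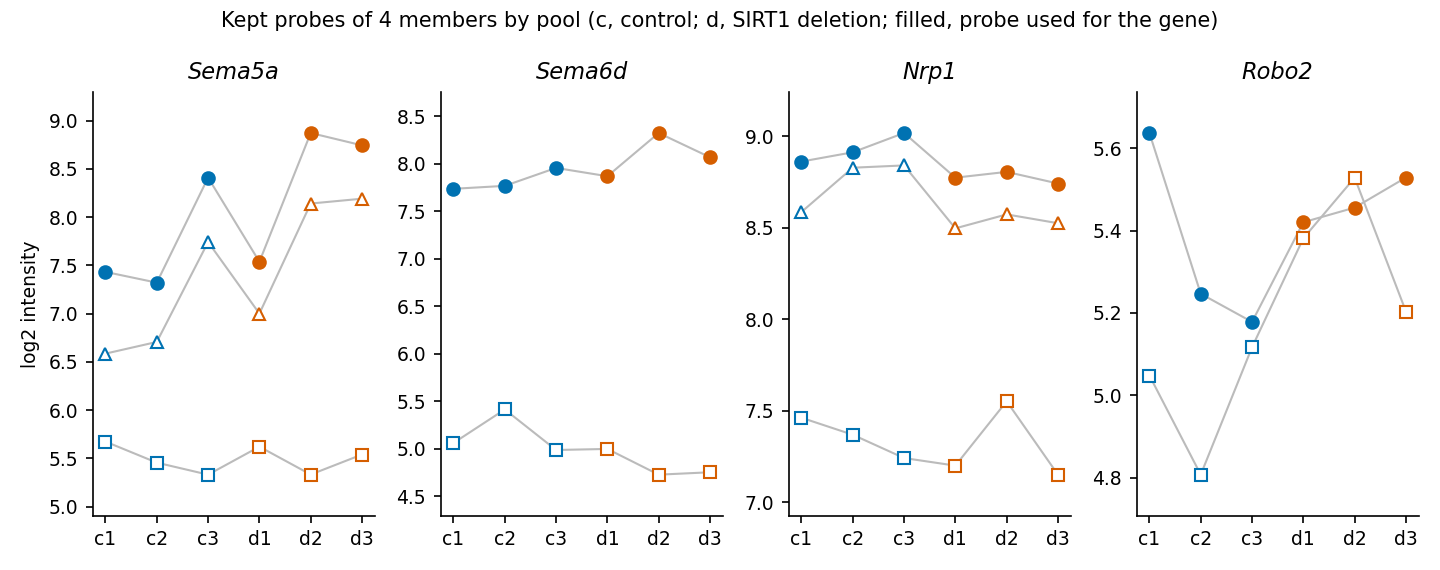
Log2 intensity (vertical axis) of each kept probe of Sema5a, Sema6d, Nrp1 and Robo2 in the 6 pools, controls in blue and SIRT1 deletion in orange, with the probe used for the gene filled. For Sema5a 2 probes were high in control 3 and in SIRT1 deletion 2 and 3 while the remaining one stayed between 5.33 and 5.67.

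The other semaphorins did not pass the test. Sema4a had 0.088, Sema4f 0.045, Sema4b -0.0055, Sema6a -0.12 and Sema6b -0.095 as log2 differences. A second Sema6a probe gave 0.10, and a second Sema4f probe gave 0.042.

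Among Eph receptors and ephrins, Efna5 was the only gene whose pools did not overlap. Ephrin-A5 is a membrane-anchored ligand of EphA receptors. It had 10.46, 10.35 and 10.36 in control and 10.48, 10.62 and 10.47 in deletion pools. SIRT1 deletion 1 and 3 lay barely above control 1. The difference was 0.13 (-0.067 to 0.33, limma adjusted p = 0.662), but -0.041 when arrays were scaled to a common median, which moved the median of all features to -0.13. Efna3, another EphA ligand, differed by 0.20 (-0.061 to 0.46) with overlapping pools. Their receptors Epha4, Epha5 and Epha7 differed by 0.053, -0.040 and -0.036. The other kept Epha5 probes gave 0.13 and 0.0061, and the second Epha7 probe gave -0.097.

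Of the B class, Ephb4, known as a receptor of veins, had 6.36, 6.33 and 5.93 in control and 5.92, 6.04 and 6.02 in deletion pools. Control 3 lay at the level of the deletion pools, and the difference was -0.21 (-0.50 to 0.074). Ephb1, a receptor that repels axons from ephrin-B, differed by -0.074 (-0.27 to 0.13), and Ephb6, which lacks kinase activity, by -0.045. The ligands Efnb1 and Efnb3 differed by -0.0056 and 0.087.

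Netrin-4 is a laminin-related protein of basement membranes, and Ntn4 had the lowest p of all members. Its single kept probe had 5.10, 5.19 and 4.83 in control and 5.35, 5.38 and 5.36 in deletion pools. The deletion pools lay close together, all above the brightest control. The difference was 0.32 (95% interval 0.076 to 0.57, limma unadjusted p = 0.0163, adjusted p = 0.516). The probe was dim, detected on 2 of 3 control arrays, where the lowest detected value per array was 4.86 to 4.89, so the control value rests in part on background. Without control 3 the difference was 0.22, and without background correction 0.072.

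The netrin receptors did not move as a group. Unc5b, a repulsive netrin receptor that also acts in blood vessels, had 5.43, 6.04 and 5.86 in control and 5.74, 4.88 and 5.07 in deletion pools. SIRT1 deletion 2 and 3 were low, and SIRT1 deletion 1 lay among the controls. The difference was -0.54 (-1.07 to -0.019, limma unadjusted p = 0.0438, adjusted p = 0.554). It was -0.80 without SIRT1 deletion 1 and -0.37 without SIRT1 deletion 2. Without background correction it was -0.14 (limma unadjusted p = 0.0727), and with the authors' normalised table -0.20. The probe was detected on all control arrays and on 2 of 3 deletion arrays.

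Unc5c and Unc5a were higher in every deletion pool by small amounts on the quantile-normalised scale. Unc5c had 9.03, 9.06 and 9.00 in control and 9.22, 9.12 and 9.21 in deletion pools, a difference of 0.15 (-0.034 to 0.34, limma adjusted p = 0.602), or -0.0049 with that median scaling. Its second probe gave 0.065, with overlap. Unc5a had 6.87, 6.83 and 6.86 in control and 6.89, 7.02 and 7.01 in deletion pools, a difference of 0.12 (-0.068 to 0.31), or 0.0015 with median scaling. The second Unc5a probe gave -0.073. Dcc, the attractive netrin receptor, had 5.04, 5.53 and 5.70 in control and 5.52, 4.88 and 5.51 in deletion pools. Its groups overlapped widely, and its difference was -0.12 (-0.61 to 0.36).

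Slit2 and its receptors gave no difference that passed the test, and their probes did not all give the same picture. Slit2, a secreted repellent, differed by 0.0064 (-0.22 to 0.23), with overlapping pools on its brightest probe. Of its other kept probes, 1 had 6.26, 6.29 and 6.42 in control and 6.51, 6.53 and 6.46 in deletion pools, a difference of 0.18 (limma adjusted p = 0.607, with every probe a feature). Another gave 0.14, and on both probes every deletion pool lay above every control pool. The remaining Slit2 probe gave -0.085 with overlap. Robo1 differed by -0.10 (-0.33 to 0.13). The probe that represents Robo2 differed by 0.11, while a dimmer one, detected on 5 arrays, had 5.05, 4.81 and 5.12 in control and 5.38, 5.53 and 5.20 in deletion pools. That dimmer Robo2 probe did not overlap between groups and differed by 0.38 (limma unadjusted p = 0.013 and adjusted p = 0.508, with every probe a feature).

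Of the 14 members with more than 1 kept probe, 7 had probes of opposite sign and 7 had probes of the same sign. The probes differed by more than 0.3 in Sema5a and Sema6d. The other 25 members rest on 1 kept probe each. Over the 6 pools the median range of a member was 0.40, against 0.37 for all features, and Sema5a and Unc5b were the members with a range above 1. SIRT1 deletion 2 held the lowest value of 12 members and the highest of 10, more than any other pool in each case.

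Genes that act with these cues and receptors were read from 2 lists chosen with earlier results of these data known. Of 27 measured genes for other guidance cues and receptors 10 were higher and 17 lower, with a median of -0.011, and 0 passed at a limma adjusted p under 0.05. At an unadjusted p under 0.05 there was 1 higher (against 4.61% of all features) and 3 lower (against 4.21%). Cntn2, which encodes the axonal adhesion protein contactin-2, had 8.80, 9.01 and 8.97 in control and 8.47, 8.50 and 8.44 in deletion pools. All deletion pools lay below all controls, with a difference of -0.46 (-0.66 to -0.25, limma adjusted p = 0.222). Over the alternatives the adjusted p of Cntn2 ranged from 0.0387, with an intensity trend and robust prior, to 0.675. Flrt2, a membrane ligand of UNC5 receptors, had 6.28, 6.10 and 6.11 in control and 5.93, 5.79 and 5.58 in deletion pools, a difference of -0.40 (-0.65 to -0.14, limma adjusted p = 0.427), or -0.12 without background correction. Cdon, a co-receptor of Sonic hedgehog, differed by 0.34 (0.10 without background correction), and Ptch1, its main receptor, by -0.21, both without overlap. Ntng2 (-0.18, without overlap), Ntn3 (0.18), Chl1 (0.25) and Rgmb (0.15) did not reach an unadjusted p under 0.05.

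Of 46 measured genes for signalling inside the cell 27 were higher and 19 lower, with a median of 0.040. Rnd3 alone passed at a limma adjusted p under 0.05, which 0.105% of all features did. Because the list was chosen with earlier results of these data known, this call says nothing about the list as a whole. At an unadjusted p under 0.05 there were 4 higher, Rnd3 included (against 4.61% of all features), and 2 lower (against 4.21%). Rnd3 encodes an atypical small GTPase that binds the kinase ROCK1. It had 6.26, 6.07 and 6.23 in control and 7.31, 7.70 and 7.50 in deletion pools, far apart, and rose by 1.32 on the log2 scale (limma adjusted p = 0.0035). The difference was smaller under other processing, at 0.61 without background correction (limma adjusted p = 0.0124) and 0.78 with the authors' normalised table (limma adjusted p = 0.00125). Its relative Rnd2 had 9.31, 9.19 and 9.48 in control and 9.53, 9.69 and 9.90 in deletion pools, a difference of 0.38 without overlap (0.11 to 0.65, limma adjusted p = 0.494). Rnd1, which binds plexins, was on the list but not measured. Rock1, a kinase that RHOA activates, differed by 0.28 and Pak2, a kinase of RAC and CDC42, by 0.33. A second Pak2 probe gave 0.50. Dpysl3, a member of the CRMP family that relays semaphorin signals, differed by -0.23 without overlap. Enah, an actin regulator at the growth cone, differed by -0.46, but its second probe gave 0.18. Ngef, an exchange factor that EphA receptors use, differed by -0.19 and Chn2, a GTPase-activating protein for RAC, by -0.17, both without overlap. For Ngef the gap was narrow, with SIRT1 deletion 3 at 10.67 and control 2 at 10.68.

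**Figure D5:**
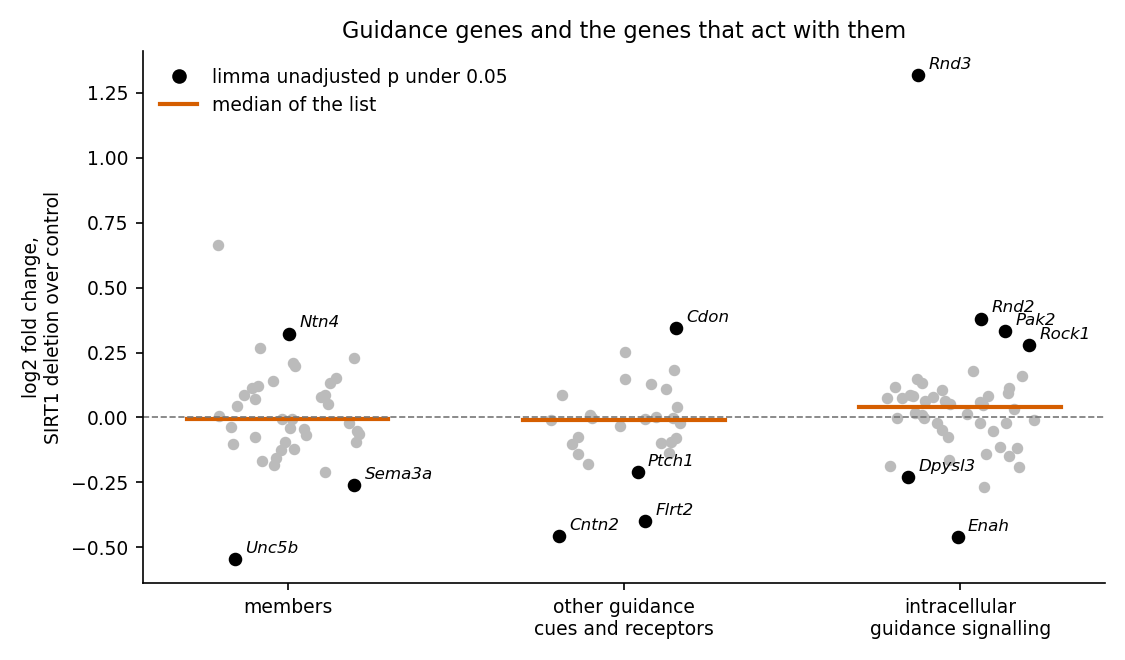
Log2 fold change of SIRT1 deletion over control (vertical axis) for the 39 members, 27 other guidance cues and receptors and 46 signalling genes, with points spread sideways for legibility. Black points have a limma unadjusted p under 0.05, and orange lines are medians (-0.0056, -0.011 and 0.040). Rnd3 at 1.32 stands apart, on a list chosen with earlier results of these data known.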

How the data were processed

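Expression was measured on Illumina bead arrays, 1 array per pool. The authors deposited a mean signal intensity per probe on a linear scale, not background-subtracted or scaled between arrays, and, per the file headers, a detection p-value. Their second deposited table, intensity values with the same quantiles in every column, served as an alternative. RNA was isolated with Trizol, cleared of DNA and converted to biotinylated cRNA, per the labels' protocols. No source used here names the scanner software.

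The neqc function of limma 3.58.1 (R 4.3.3) applied normexp with the detection p-values, an offset of 16, quantile normalisation and log2. A probe was kept if its detection p was under 0.05 on 3 or more arrays (20402 probes), and a gene was represented by its kept probe with the highest mean. This gave 14221 features (11049 named genes, 3172 unnamed probes). Of the probes 34885 had 1 symbol in the platform annotation, 18 several and 10378 none. Groups were compared with lmFit and eBayes, adjusted by Benjamini-Hochberg over all features. The procedure was tested on simulated data in which 200 of the 14221 features were changed and noise had the variances estimated by eBayes. It recovered 6.8% of 1.25-fold, 74.4% of 1.5-fold and 98.8% of 2-fold changes, with 8.6 false calls on average. The simulated noise was independent between features, without variation that many genes of a pool share, so real data may give fewer. Recovery after the adjustment also depends on how many features change, and 15 were called in the real data. These rates therefore do not carry over to the members. The number of arrays limits the precision. Figures were drawn with Python 3.11.15 and matplotlib 3.10.9.

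The members and the gene lists were chosen with earlier results of these data known. Genes named were the 10 members of lowest p in each direction, the 2 of lowest p in each class, members whose probes differ by more than 0.3, Sirt1 and Nr5a1, and the 4 genes of lowest p in each direction of the 2 pathway lists. The other members were named to complete the family, after their values were seen. Of the lists of cell markers, ventromedial genes were lower in 15 of 18 (median -0.098), arcuate in 5 of 8, oligodendrocyte precursor in 4 of 7, astrocyte in 1 of 10, microglia in 5 of 9, tanycyte and ependymal in 1 of 3 and choroid plexus in 2 of 3. Nr5a1, a dim probe, was higher without overlap by 0.45 (limma adjusted p = 0.427), or by 0.10 without background correction. Replicate numbers were not treated as pairs. Alternatives covered background correction, offset, normalisation, the filter on dim probes, the choice of probe per gene, weights for arrays, the prior on variances, the replicate block, the threshold and each pool left out.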

Additional observations from a re-analysis of the deposited data

How the results depend on the processing

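No member passed a limma adjusted p under 0.05 under any of the 19 alternatives or at a threshold of 0.10, and the lowest adjusted p among the 27 named members was 0.153. Of these 27 members 18 kept their sign in every alternative that measured them. With 3 arrays a group and several dim probes, small differences could not be resolved. Features called numbered 15 and became 4 where all 6 arrays had to show a probe at p under 0.01, 9 with no filter and 29 with an intensity trend and robust prior. Members at an unadjusted p under 0.05 numbered 3 and became 5 with an offset of 50 (12.8% against 9.8% of all features). They were also 5 with the authors' normalised table (12.8% against 10.2%). With every probe a feature they were 5 of 58 probes (8.62% against 8.47%), and with no filter 6 of 63 genes (9.52% against 7.69%). Median scaling gave 9 (23.1% against 22.4%). Leaving out 1 pool gave 1 (without SIRT1 deletion 2, 2.56% against 6.15% of all features) to 7 (without SIRT1 deletion 1, 17.9% against 14.1%). The replicate block gave 3 members at an unadjusted p under 0.05 (7.69% against 7.47% of all features), 0 called members and 10 called features. Deviations of same-numbered pools correlated at -0.0515, -0.0443 and -0.023 across features, and those of differently numbered pools at -0.0127 to 0.0507. No pairing by number was seen, but a pairing that is weak or touches few genes would not show in these values. The median of the members became -0.021 with array weights and -0.12 with median scaling, which moved the median of all features to -0.13, and ranged from -0.018 to 0.018 when 1 pool was left out. With median scaling the sign turned for Unc5c (-0.0049), Efna5 (-0.041), Efnb3 (-0.0035) and Slit2 (-0.15). With the mean of the kept probes it turned for Sema6d (-0.030) and Epha5 (0.031), and with array weights for Efnb1 (0.0011). Leaving out 1 pool also turned the sign of Nrp2 (-0.13 to 0.040), Efnb1 (-0.094 to 0.082), Epha5 (-0.082 to 0.032), Epha7 (-0.096 to 0.0049), Slit2 (-0.059 to 0.061) and Sirt1 (-0.092 to 0.039). The cause of these turns was not tested.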
